A study of Mus with 4 samples.

Results

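WNT ligands, their receptors and the regulators of the pathway were followed in PPS-ICBR cells, a line that the labels describe as C57Bl6 mouse prostate cancer cells, after an overnight culture with vorinostat. Vorinostat is a histone deacetylase inhibitor: acetyl marks on histones and other proteins are removed less. The members were all probe sets whose single gene symbol names a Wnt ligand, a Frizzled receptor (Fzd), an R-spondin (Rspo), a dishevelled protein (Dvl) or a secreted inhibitor of the Sfrp or Dkk family, together with Lrp5, Lrp6, Ror2, Porcn, Wif1, Znrf3, Rnf43, Axin1, Axin2, Apc, Ctnnb1, Nkd1, Nkd2, Lef1, Tcf7, Tcf7l1 and Tcf7l2. This gave 123 of the 45037 probe sets that are not controls, and 61 genes. Fzd10os, a transcript named for the strand opposite Fzd10, is among these genes through its name and is no receptor. Tcf7 was not analysed here.

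The vorinostat group held 2 arrays of cells given 5 µM of the drug in DMSO, and the DMSO group held 2 arrays of cells given the solvent alone, at 5 µL in 10 mL of medium. All cells were of the same line and were plated at 60% confluency in DMEM with 10% FBS. The labels do not say whether the 2 arrays of each group stand for separate cultures. The p-values therefore cover the spread between these arrays alone, which may be technical. All values are from 1 cell line in culture, which limits what they say of a tumour.

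In the canonical branch of the pathway, a secreted WNT protein bridges a Frizzled receptor and the co-receptor Lrp5 or Lrp6, dishevelled is recruited, and a complex of Axin and Apc no longer marks β-catenin (Ctnnb1) for destruction, so that β-catenin enters the nucleus and acts with LEF and TCF factors. Secreted Sfrp proteins and Wif1 bind the ligands, and some Dkk proteins, such as Dkk2, bind the co-receptors. The membrane ligases Rnf43 and Znrf3 remove Frizzled receptors from the surface unless an R-spondin withdraws them. Other branches act without β-catenin, through receptors such as Ror2 and through planar polarity proteins, and WNT signals are known for roles in budding of the prostate and in prostate cancer.

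Levels are the deposited log2 RMA values, and each probe set was set only against itself. The array medians lay between 4.26 and 4.28 with vorinostat and between 4.19 and 4.22 with DMSO, and no member probe set differed by more than 2-fold between the arrays of a group (largest difference 0.50 with vorinostat and 0.66 with DMSO, in log2 units). The epithelial genes Krt8, Krt18, Epcam and Cdh1 and the prostate homeobox gene Hoxb13 lay well above background, whereas the prostate secretory genes Pbsn and Msmb lay near background on all arrays. Some fibroblast genes were also bright. The log2 of the summed linear levels of 8 such markers was 12.97 and 13.19 with vorinostat and 13.31 and 13.31 with DMSO. For 8 epithelial markers this log2 sum was 12.83 and 12.97 with vorinostat and 13.25 and 13.29 with DMSO. The brightest gene weighs most in such a sum. Among the fibroblast markers this was Col1a2 (12.40 and 12.53 with vorinostat, 12.67 and 12.68 with DMSO), whereas Lum lay near background on all arrays. Single markers moved both ways within these sums, with Pdgfrb (-2.49), Col3a1 (-0.89), Krt8 (-1.05) and Cldn7 (-0.46) lower and Pdgfra (1.54), Dcn (1.26), Krt19 (1.10) and Cldn4 (0.77) higher. The log2 sum of 7 immune cell markers was 6.68 and 6.69 with vorinostat and 6.51 and 6.61 with DMSO. That of 5 neuroendocrine markers was 7.72 and 7.81 with vorinostat and 6.94 and 6.71 with DMSO. Of these 5, 3 lay near background on all arrays, and Eno2 (1.68) was the 1 gene that passed. The sum was 8.84 and 9.10 with vorinostat and 8.61 and 8.39 with DMSO for 5 prostate basal markers, of which Dst passed (0.57), and 9.78 and 9.81 with vorinostat and 9.48 and 9.49 with DMSO for 6 luminal markers, of which Hoxb13 passed (0.54). The part of these marker genes in the results was not tested. Of the 7 immune cell markers, 4 lay near background on all arrays, the pan-leukocyte gene Ptprc among them. Cd3e, Csf1r and Lyz2 did not, and Cd3e passed (0.43). Of 6 endothelial markers, 4 lay near background on all arrays, Pecam1 among them. Kdr and Cdh5 did not, and no endothelial marker passed. The endothelial sum was 5.92 and 6.06 with vorinostat and 5.91 and 5.99 with DMSO.

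The question was which members changed their transcript level under vorinostat. Among 61 genes, each read at its brightest probe set, 11 rose and 11 fell, and 39 did not pass (limma, Benjamini-Hochberg adjusted p under 0.05 over all probe sets). That is 36.1% of the member genes, against 39.9% of all 18193 genes, so the share of WNT genes called was near the background. Among all genes, 20.9% rose and 18.9% fell. The median log2 change was 0.03 over the member genes and 0.03 over all genes. At least 2-fold, 3 genes rose, namely Dkk3, Rspo3 and Fzd4 (background 5.74% of all genes), and 2 fell, namely Wnt5a and Dkk2 (background 6.17%, or 11.9% in either direction). Over probe sets, 15 of 123 rose and 21 fell, or 29.3% against a background of 32.2% (16.5% higher and 15.7% lower). At least 2-fold, 4 probe sets rose and 4 fell, against 4.02% and 4.67% of all probe sets, or 8.69% in either direction. The culture was measured as a whole, so fewer cells of a kind and less RNA per cell cannot be told apart.

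Of the 61 genes, 16 lay near background on all 4 arrays, that is no more than 1 log2 unit above 2.78, the brightest value of a control probe set whose target was never added, and 1 of these passed the test. The calls depended on how the arrays were scaled. With arrays scaled on 7 reference genes, 11 genes rose and 10 fell, against 4264 and 3240 of all 18193 genes. With arrays scaled on their medians the counts were 9 and 13, against 3364 and 3898 of all genes. With Gusb and Polr2a added to the reference genes, a choice made after the data were seen, 27 rose and 7 fell. That last scaling rests on Gusb (-1.42) and Polr2a (-0.75), and it raised every log2 change by 0.28 and the median of all genes to 0.30. Under it 8885 of all 18193 genes rose and 2341 fell, and counts under it are to be read against these. The 9 member genes that passed in every alternative, the omission of each array included, were Wnt5a, Wnt10a, Fzd1, Fzd2, Fzd4, Fzd5, Lrp6, Dkk3 and Axin1. Of the 39 genes that did not pass, 18 passed in some alternative, 12 of them only with Gusb and Polr2a added. The other 6 were Fzd10, Porcn, Wnt2b, Wnt6, Wnt9b and Znrf3. Among the 9 genes named above, Axin1, Fzd2, Fzd5, Lrp6 and Wnt10a were only just past the threshold when some array was left out.

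**Figure D1:**
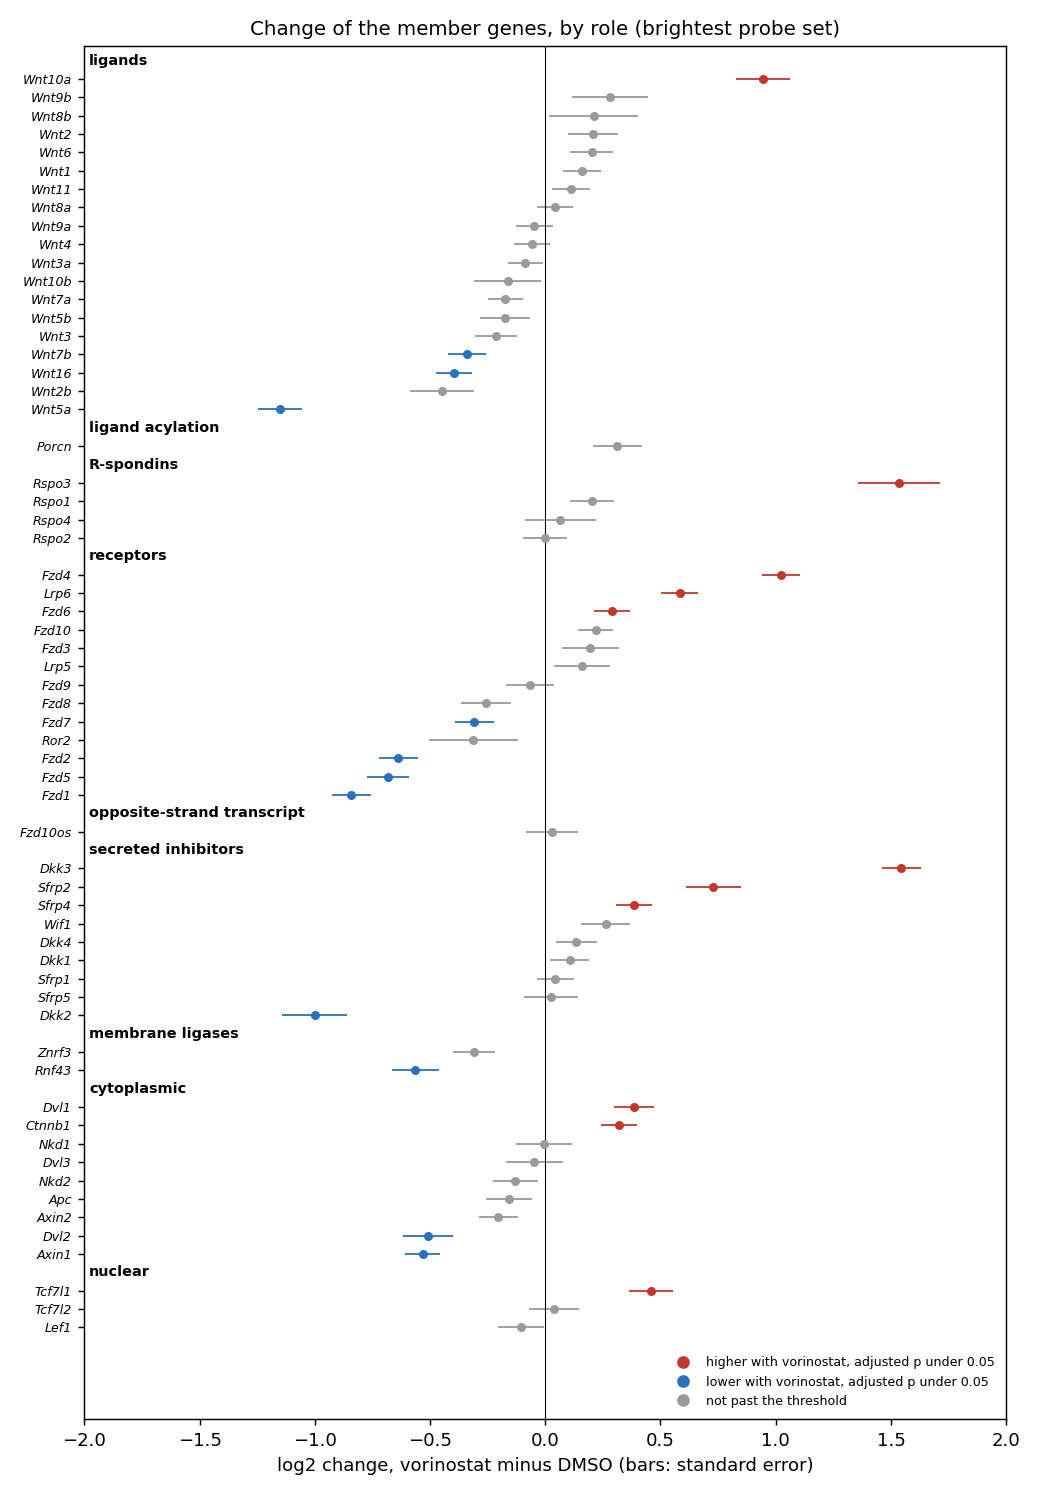
Log2 change (vorinostat minus DMSO, horizontal axis) of the 61 member genes at their brightest probe set, grouped by role; bars are the standard errors of the limma comparison of 2 vorinostat with 2 DMSO arrays. Dkk3 (1.55) and Fzd4 (1.02) on the higher side and Wnt5a (-1.15) on the lower stand apart from the 39 genes that did not pass the threshold. The points of Rspo3 and Sfrp2 are measured changes against DMSO levels near background, where only a lower bound holds, and 16 genes lay near background on all arrays.

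Of 19 Wnt ligand genes, 1 rose, 3 fell and 15 did not pass (21.1% called, against 39.9% of all genes), with 9 of the 19 near background on all arrays. The count was 7 higher and 1 lower with Gusb and Polr2a among the reference genes, against 8885 and 2341 of all 18193 genes. It was 1 and 4 with median scaling, against 3364 and 3898 of all genes. Wnt5a, the archetype of the ligands that act without β-catenin, was measured at log2 levels of 7.29 and 7.46 with vorinostat, against 8.48 and 8.58 with DMSO. The groups did not overlap, and the change was -1.15 (SE 0.10, limma adjusted p = 0.00081), a 2.22-fold fall. With 2 arrays a group, a lack of overlap says little: Wnt4 and Wnt7a showed no overlap either and did not pass. The share of all genes without overlap was not counted. A lack of overlap in a gene past the threshold, here and below, is no further support. Of the other probe sets of Wnt5a, 1448818_at fell by 1.16 and 1437673_at by 1.49 on the log2 scale, and 1456976_at, near background on all arrays, did not pass. Wnt5b, its closest relative, changed by -0.18 and did not pass (SE 0.11, limma adjusted p = 0.299).

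Wnt10a, a ligand of the canonical branch known from skin appendages and teeth, was the ligand that rose. Its log2 levels were 6.96 and 6.86 with vorinostat, against 6.10 and 5.83 with DMSO, with no overlap. The change was 0.94 (SE 0.12, limma adjusted p = 0.0028), a 1.93-fold rise. Wnt6, which neighbours Wnt10a in the GRCm38.p6 RefSeq annotation, changed by 0.20 and did not pass (SE 0.09, limma adjusted p = 0.175). The mean over its probe sets did pass (0.28, adjusted p = 0.0279). In the other neighbouring pairs among the ligands, Wnt3a and Wnt9a, Wnt9b and Wnt3, and Wnt10b and Wnt1, no gene passed.

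Wnt7b, a canonical ligand of epithelia, had log2 levels of 7.72 and 7.77 with vorinostat, against 8.13 and 8.05 with DMSO. The change of its brightest probe set was -0.34 (SE 0.08, limma adjusted p = 0.0282) and that of 1420891_at was -0.54 (SE 0.08, limma adjusted p = 0.00646). The fall of the brightest probe set did not pass when any single array was left out (-0.38 to -0.30, adjusted p from 0.079 to 0.144) or with Gusb and Polr2a among the reference genes (-0.06). Wnt16 passed with a change of -0.40 (SE 0.08, limma adjusted p = 0.0149), but all of its levels were near background, at 3.15 and 3.18 with vorinostat and 3.53 and 3.59 with DMSO, so no fold is given. It did not pass when any single array was left out either (-0.43 to -0.36, adjusted p from 0.0639 to 0.0949). Wnt2b did not pass either (limma adjusted p = 0.0609) and, with Wnt1, Wnt2, Wnt3, Wnt8a, Wnt8b, Wnt9b and Wnt11, none of which passed, lay near background on all arrays. Wnt3a, Wnt4, Wnt7a, Wnt9a and Wnt10b, above that limit, lay between -0.17 and -0.05 and did not pass. Porcn, the enzyme that attaches a fatty acid to WNT proteins before secretion, changed by 0.31 and did not pass (SE 0.11, limma adjusted p = 0.0845).

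**Figure D2:**
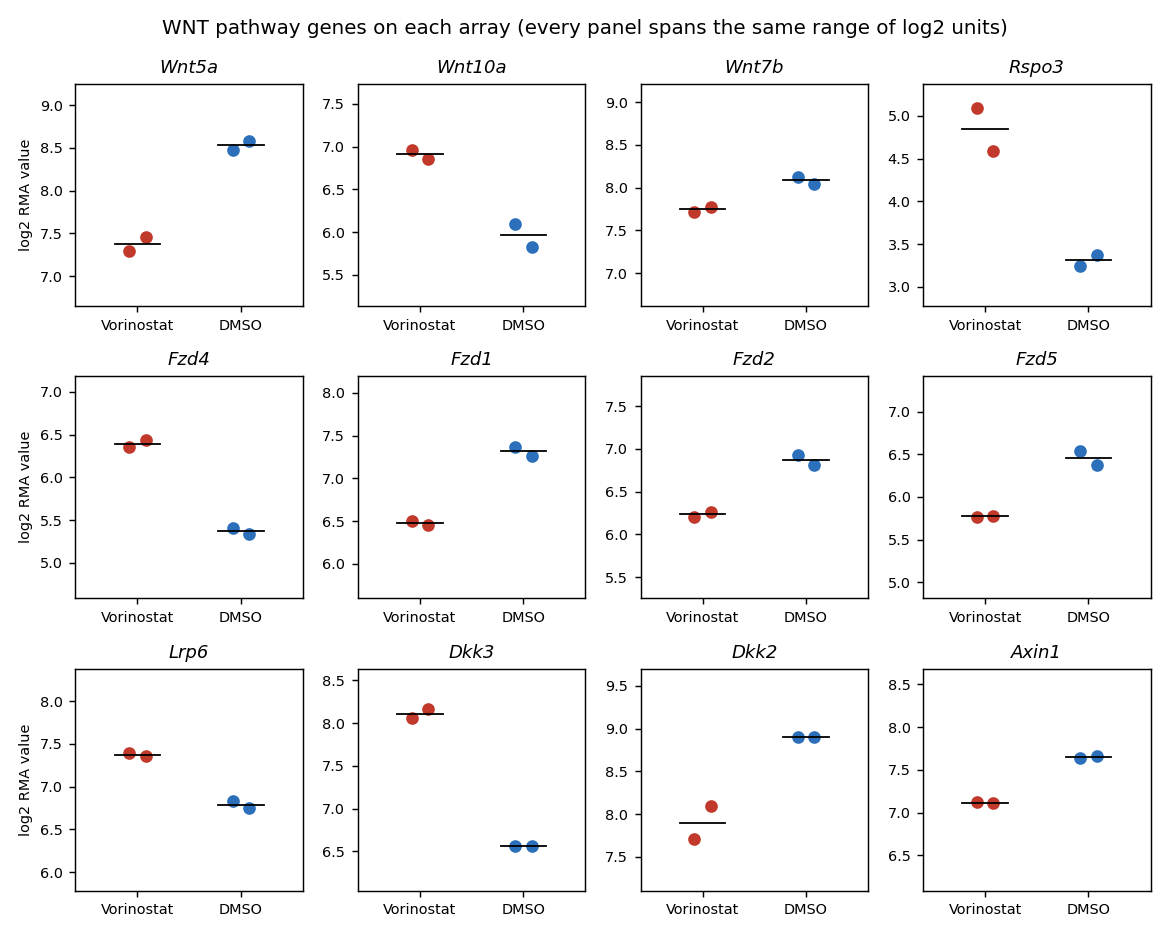
Log2 RMA values of 12 member genes on each array, vorinostat left and DMSO right; points are arrays and black lines the means of 2 arrays, and every panel spans the same number of log2 units. All 12 panels show genes past the threshold, so a lack of overlap between the groups in them is no further support. The DMSO arrays of Rspo3 (3.24 and 3.38) lie near background.

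Rspo3, an R-spondin that protects Frizzled receptors from removal, was at 5.10 and 4.59 with vorinostat, against 3.24 and 3.38 with DMSO, on the log2 scale. Because DMSO levels sat near background, the change has only a lower bound, at least 2.10-fold, or at least 1.07 on the log2 scale (measured change 1.54, SE 0.18, limma adjusted p = 0.00227). Without DMSO 1 it did not pass (1.47, adjusted p = 0.0572), and another probe set of the gene, 1443187_at, lay near background on all arrays and did not pass. The mean over both probe sets of Rspo3 rose by 0.78. Rspo2 (0.00) did not pass, nor did Rspo1 and Rspo4, which lay near background on all arrays. Lgr4, a receptor of the R-spondins, was chosen after its value was seen: it was at 8.59 and 8.64 with vorinostat, against 7.71 and 7.80 with DMSO, a rise of 0.85 (SE 0.08, limma adjusted p = 0.00125), or 0.48 as the mean over its probe sets.

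The membrane ligases that R-spondins withdraw were lower or did not pass. Rnf43 was at log2 levels of 4.12 and 4.22 with vorinostat, against 4.83 and 4.64 with DMSO, a fall of 0.56 on the log2 scale (SE 0.10, limma adjusted p = 0.0105). The groups did not overlap, but it no longer passed without DMSO 1 (-0.47, adjusted p = 0.0712), Vorinostat 1 (-0.51, adjusted p = 0.0946) or Vorinostat 2 (-0.61, adjusted p = 0.0633). Znrf3, its close relative, changed by -0.31 and did not pass (SE 0.09, limma adjusted p = 0.0539). It did pass with median scaling (-0.37, adjusted p = 0.0324), with an intensity trend (adjusted p = 0.0212) and with only the brighter probe sets, those over the median mean level, in the test (adjusted p = 0.0203).

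Receptors moved in both directions, with 3 of 13 higher, 4 lower and 6 not past the threshold (53.8% called, against 39.9% of all genes). None of the 13 lay near background on all arrays at its brightest probe set. Of all 18193 genes, 4963 did, and only 289 of these passed, so the shares are not at equal levels. The counts were 6 higher and 3 lower with Gusb and Polr2a among the reference genes, against 8885 and 2341 of all 18193 genes. Fzd4, a Frizzled that also binds norrin, had log2 levels of 6.36 and 6.44 with vorinostat, against 5.41 and 5.34 with DMSO. It rose by 1.02 (SE 0.08, limma adjusted p = 0.000739), a 2.03-fold change. Its other probe sets did not pass: 1434756_at was at 0.11 and 1449416_at lay near background, and the mean over the 3 probe sets of Fzd4 rose by 0.41.

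Fzd1 had log2 levels of 6.50 and 6.45 with vorinostat, against 7.37 and 7.26 with DMSO. The change was -0.84 (SE 0.08, limma adjusted p = 0.00143), a 1.79-fold fall. Fzd5 was at 5.77 and 5.78 with vorinostat, against 6.54 and 6.38 with DMSO, a change of -0.68 (SE 0.09, limma adjusted p = 0.00363). Another probe set of Fzd5, 1422937_at, was at -0.13 and did not pass, and the mean over both was -0.41. Fzd2 was at 6.20 and 6.27 with vorinostat, against 6.93 and 6.81 with DMSO, a change of -0.64 (SE 0.09, limma adjusted p = 0.00384), and 1418533_s_at, whose suffix marks a probe set shared between transcripts, was at -0.91 and 1418534_at, which did not pass, at -0.32. In none of Fzd1, Fzd2 and Fzd5 did the vorinostat and DMSO arrays overlap, which is no further support for genes past the threshold.

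Fzd7 and Fzd6 passed with small changes. Fzd7 was at 7.23 and 7.33 with vorinostat, against 7.62 and 7.56 with DMSO, a change of -0.31 (SE 0.08, limma adjusted p = 0.0442). Fzd6, known from planar polarity of skin and hair, was at 6.95 and 6.95 with vorinostat, against 6.68 and 6.64 with DMSO, a change of 0.29 (SE 0.08, limma adjusted p = 0.0391). Neither passed when any single array was left out, with adjusted p from 0.101 to 0.195 for Fzd7 (-0.36 to -0.26) and from 0.106 to 0.15 for Fzd6 (0.27 to 0.31). Fzd7 was at -0.03 with Gusb and Polr2a among the reference genes, and the mean over the probe sets of Fzd6 was 0.06.

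The co-receptor Lrp6 was at log2 levels of 7.39 and 7.35 with vorinostat, against 6.83 and 6.75 with DMSO. It rose by 0.58 (SE 0.08, limma adjusted p = 0.00417), and 1451022_at of the same gene rose by 0.42. Its paralogue Lrp5 changed by 0.16 and did not pass (SE 0.12, limma adjusted p = 0.4). Ror2, a receptor of Wnt5a, changed by -0.31 and did not pass (SE 0.19, limma adjusted p = 0.294), with levels of 4.69 and 4.39 with vorinostat that overlap the 5.10 and 4.61 with DMSO. Fzd3 (0.20), Fzd8 (-0.26), Fzd9 (-0.07), Fzd10 (0.22) and Fzd10os (0.03) did not pass.

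Secreted inhibitors changed in both directions. Of 9 genes, 3 rose, 1 fell and 5 did not pass (44.4% called, against 39.9% of all genes). The counts were 7 higher and 1 lower with Gusb and Polr2a among the reference genes, against 8885 and 2341 of all 18193 genes. Dkk3 is a divergent Dickkopf that is known for low expression in many tumours. It is counted among the inhibitors by its family name, and its action on the pathway was not tested. Its log2 levels were 8.05 and 8.16 with vorinostat, against 6.57 and 6.56 with DMSO. The rise was 1.55 (SE 0.08, limma adjusted p = 0.000288), or 2.92-fold, and 1448669_at of the same gene rose by 1.20. Dkk2, which binds Lrp5 and Lrp6, was at 7.71 and 8.09 with vorinostat, against 8.91 and 8.90 with DMSO, a fall of 1.00 on the log2 scale (SE 0.14, limma adjusted p = 0.00454). The groups did not overlap for either gene, but the call of Dkk2 was lost without DMSO 2 (-1.01, adjusted p = 0.0694) or DMSO 1 (a change of about the same size, adjusted p = 0.0738).

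The ligand-binding inhibitor Sfrp2 was at log2 levels of 4.22 and 4.12 with vorinostat, against 3.58 and 3.30 with DMSO, where it lay near background. The lower bound of the rise is thus at least 1.31-fold (measured change 0.73, SE 0.12, limma adjusted p = 0.00777), and it did not pass without Vorinostat 1 (0.68, adjusted p = 0.0863) or Vorinostat 2 (0.78, adjusted p = 0.0635). Sfrp4 was at 5.68 and 5.61 with vorinostat, against 5.26 and 5.26 with DMSO, a change of 0.38 (SE 0.08, limma adjusted p = 0.0172) that was lost when any single array was left out (0.35 to 0.42, adjusted p from 0.0685 to 0.106). Sfrp1 (0.04), Sfrp5 (0.03), Dkk1, Dkk4 and Wif1 did not pass, and Dkk1, Dkk4 and Wif1 lay near background on all arrays. Kremen1, which binds some Dkk proteins together with Lrp6, was also chosen after its value was seen. It was at 7.17 and 7.13 with vorinostat, against 6.28 and 6.33 with DMSO. The rise was 0.84 (SE 0.08, limma adjusted p = 0.0011), or 0.42 as the mean over its probe sets.

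Among the 9 transducers and members of the destruction complex, 2 rose, 2 fell and 5 did not pass (44.4% called, against 39.9% of all genes). The counts were 1 and 2 with median scaling, against 3364 and 3898 of all 18193 genes. They were 2 and 1 with Gusb and Polr2a among the reference genes, against 8885 and 2341 of all genes. Axin1, the scaffold on which β-catenin is phosphorylated, was at log2 levels of 7.13 and 7.11 with vorinostat, against 7.64 and 7.66 with DMSO. The change was -0.53 (SE 0.08, limma adjusted p = 0.00477), a 1.45-fold fall, and 1426967_at of the same gene fell by 0.61. Axin2, a scaffold that is itself a widely used readout of β-catenin activity, changed by -0.20 and did not pass (SE 0.09, limma adjusted p = 0.137).

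The dishevelled genes differed in direction. Dvl1 was at 9.90 and 9.95 with vorinostat, against 9.60 and 9.48 with DMSO, a change of 0.39 (SE 0.09, limma adjusted p = 0.0232), and 1450978_at of the same gene was at 0.18 and did not pass. Dvl2 was at 6.14 and 5.96 with vorinostat, against 6.64 and 6.47 with DMSO, a change of -0.51 (SE 0.11, limma adjusted p = 0.0185), and 1448616_at of the same gene fell by 0.77. The groups did not overlap in Dvl1 or Dvl2, and Dvl3, near background on all arrays, did not pass. Ctnnb1, which encodes β-catenin, was at 12.42 and 12.41 with vorinostat, against 12.07 and 12.12 with DMSO, a change of 0.32 (SE 0.08, limma adjusted p = 0.0286), and its other probe sets, at 0.26 and 0.23, did not pass. None of these 3 calls held when any single array was left out, with adjusted p from 0.0634 to 0.128 for Dvl1 (0.32 to 0.45), from 0.0643 to 0.122 for Dvl2 (-0.60 to -0.42) and from 0.0865 to 0.129 for Ctnnb1 (0.30 to 0.34). Dvl2 was at -0.23 with Gusb and Polr2a among the reference genes and did not pass.

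Apc, the tumour suppressor of the destruction complex, was the 1 gene of 39 with several probe sets in which probe sets passed in opposite directions. Its brightest probe set, 1420956_at, was at 8.65 and 8.84 with vorinostat, against 8.94 and 8.86 with DMSO, and did not pass (-0.16, limma adjusted p = 0.304). Its probe set 1435543_at rose by 0.43 (limma adjusted p = 0.0448) and 1450056_at changed by -0.36 (limma adjusted p = 0.04). A direction for Apc as a gene is therefore not given. The inhibitors of dishevelled Nkd1 (0.00) and Nkd2 (-0.13) did not pass.

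Of the nuclear factors, Tcf7l1, which acts mostly as a repressor in the absence of a WNT signal, was at 6.26 and 6.40 with vorinostat, against 5.94 and 5.81 with DMSO. The change was 0.46 (SE 0.10, limma adjusted p = 0.0177), and 1450117_at of the same gene also rose by 0.46. The call of the brightest probe set was lost when any single array was left out (0.39 to 0.53, adjusted p from 0.0663 to 0.11). Tcf7l2 did not pass at its brightest probe set (0.04), and 1 of its 4 probe sets, 1426639_a_at, was at 3.46 and 3.40 with vorinostat, near background, against 3.97 and 4.10 with DMSO, a fall of at least 0.26 on the log2 scale (limma adjusted p = 0.00502). Lef1, near background on all vorinostat and DMSO arrays, did not pass.

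Across the 39 member genes with more than 1 probe set, 7 had all of their probe sets past the threshold in the same direction, 11 had only some, and 20 had none. The 7 were Axin1, Dkk3, Dvl2, Fzd1, Lrp6, Tcf7l1 and Wnt7b. Shares of these kinds, calls in opposite directions included, were not counted over all genes with several probe sets. Whether the probe sets of a gene differ from each other was not tested.

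**Figure D3:**
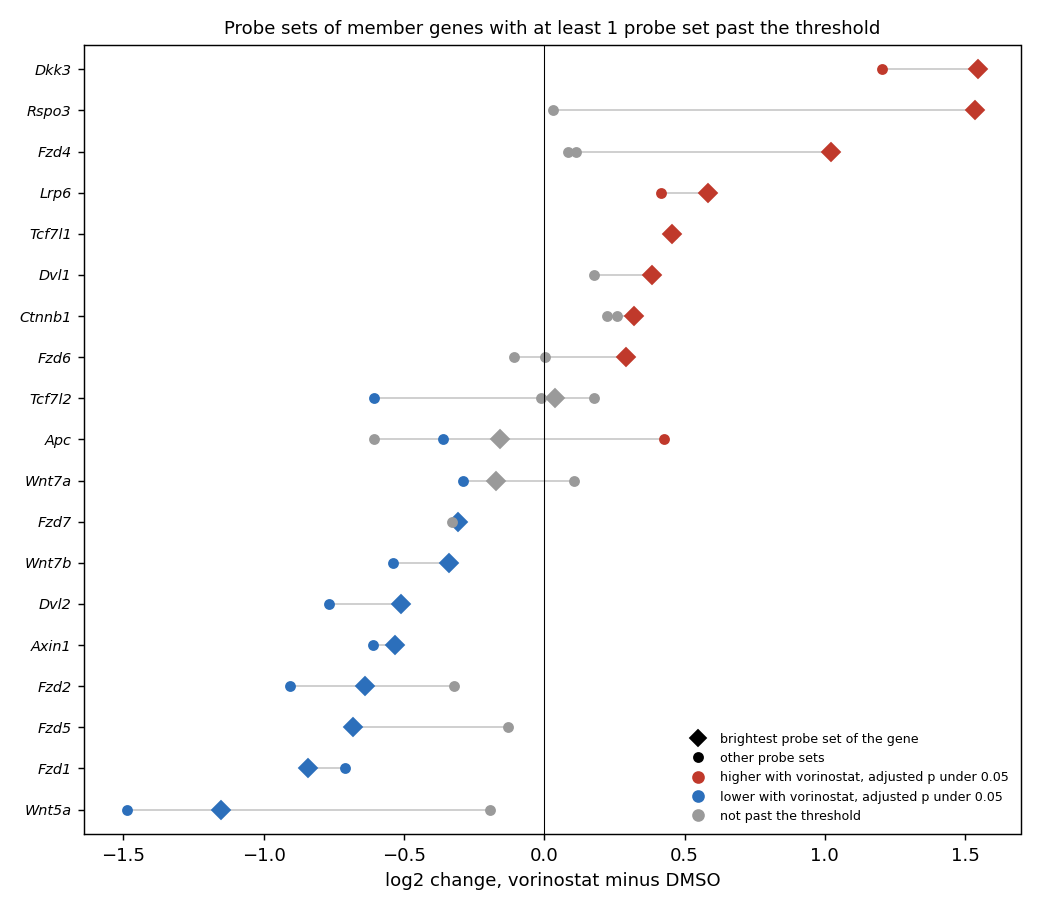
Log2 change (vorinostat minus DMSO, horizontal axis) of each probe set of the 19 member genes with several probe sets and at least 1 past the threshold; diamonds are the brightest probe sets and circles the others. The probe sets of Tcf7l1 (0.46 and 0.46) coincide, whereas Fzd4 has 1 probe set past the threshold (1.02) beside 1434756_at (0.11), and Apc has 1 past it on each side (0.43 and -0.36). Probe sets near background are drawn at their measured change.

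The other genes of the pathway were taken from 5 lists, with 122 genes measured, of which 29 rose and 26 fell, or 45.1% against 39.9% of all genes. With Gusb and Polr2a among the reference genes, 65 of the 122 rose and 15 fell, against 8885 and 2341 of all 18193 genes. Of the 122 genes, 19 lay near background on all arrays, and of the nuclear cofactors 1 of 22. Of all 18193 genes, 4963 lay near background on all arrays, and only 289 of these passed. The lists thus hold a smaller part of dim genes, and shares at equal levels were not compared. Lgr5, Notum and Apcdd1 stand on more than 1 list. The nuclear cofactors had the highest share called, with 7 of 22 higher and 8 lower (68.2% against 39.9% of all genes), or 11 and 4 under the scaling with Gusb and Polr2a, and a median change of -0.01. The corepressor Ctbp1 was at 9.39 and 9.46 with vorinostat, against 10.97 and 10.90 with DMSO, a change of -1.51 (SE 0.08, limma adjusted p = 0.00028). The acetyltransferase Crebbp fell by 1.05 on the log2 scale (SE 0.14), but not past the threshold without Vorinostat 1 (-0.96, adjusted p = 0.0551). The Groucho corepressor Tle2 was at 6.66 and 6.56 with vorinostat, against 5.24 and 5.07 with DMSO, a rise of 1.45 (SE 0.10, limma adjusted p = 0.000452). Tle6 rose by 0.72 (SE 0.12), but did not pass without DMSO 1 (0.60, adjusted p = 0.0687) or Vorinostat 2 (0.62, adjusted p = 0.0713).

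Of 27 regulators of ligands and receptors, 7 rose and 7 fell (51.9% against 39.9% of all genes), with a median of 0.07. Of the 27, 11 lay near background on all arrays, and 3 of these are among the calls: Tspan12, Lypd6 and Tmem67. The counts were 13 and 3 with Gusb and Polr2a among the reference genes, against 8885 and 2341 of all 18193 genes. Adgra2 and Reck, which together serve as a co-receptor for WNT7 ligands in brain vessels, differed in direction. Adgra2 was at 6.51 and 6.51 with vorinostat, against 8.29 and 8.06 with DMSO, a change of -1.67 (SE 0.10, limma adjusted p = 0.00038). Reck was at 4.70 and 4.56 with vorinostat, against 3.09 and 3.61 with DMSO, near background there, a rise of at least 0.85 on the log2 scale (limma adjusted p = 0.0046) that did not pass without Vorinostat 1 (1.21, adjusted p = 0.0704) or Vorinostat 2 (1.35, adjusted p = 0.0538). The binding protein Igfbp4 fell by 1.62 (SE 0.12) and the membrane inhibitor Apcdd1 rose by 0.96 (SE 0.08) on the log2 scale, or 0.64 as the mean over its probe sets.

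In the list of the destruction complex and β-catenin turnover, 5 of 21 rose and 2 fell (33.3% against 39.9% of all genes). The counts were 14 and 0 with Gusb and Polr2a among the reference genes (limma, 15 and 1 at an unadjusted p under 0.05). Of all 18193 genes, 8885 rose and 2341 fell under this scaling (10007 and 2511 at an unadjusted p under 0.05). The dishevelled-binding protein Dact3 was at 6.96 and 6.92 with vorinostat, against 5.41 and 5.80 with DMSO, a rise of 1.33 (SE 0.14, limma adjusted p = 0.00181) that was 0.45 as the mean over its probe sets. Its relative Dact1 rose by 0.86 (SE 0.15), but did not pass without DMSO 1 (0.67, adjusted p = 0.0618), Vorinostat 1 (0.95, adjusted p = 0.0672) or Vorinostat 2 (0.76, adjusted p = 0.096). The kinase Csnk1a1, which primes β-catenin for destruction, changed by -0.50 (SE 0.08) and the ubiquitin ligase Siah1a by -0.36 (SE 0.08). Neither passed when any single array was left out, with adjusted p from 0.0504 to 0.0617 for Csnk1a1 (-0.53 to -0.46) and from 0.0769 to 0.0961 for Siah1a (-0.37 to -0.36), and the means over their probe sets were -0.11 and -0.06.

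Of 19 planar polarity and noncanonical genes, 5 rose and 2 fell (36.8% against 39.9% of all genes), with a median of 0.07. The counts were 13 and 2 with Gusb and Polr2a among the reference genes, against 8885 and 2341 of all 18193 genes. Ankrd6, a dishevelled-binding ankyrin repeat protein, was at 5.46 and 5.38 with vorinostat, against 3.81 and 3.89 with DMSO, a rise of 1.57 (SE 0.08, limma adjusted p = 0.000279). The polarity effector Wdpcp rose by 1.46 (SE 0.15). As means over probe sets the rises were 0.86 for Ankrd6 and 0.78 for Wdpcp. The core polarity gene Vangl1 fell by 0.72 on the log2 scale (SE 0.10), but not past the threshold without Vorinostat 1 (-0.68, adjusted p = 0.0628), and the scaffold Scrib by 0.66 (SE 0.10), but not without DMSO 1 (-0.62, adjusted p = 0.0735) or DMSO 2 (-0.69, adjusted p = 0.0597).

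Target genes of LEF and TCF factors, gathered from work in several tissues, were split. Of 36, 6 rose, 7 fell and 23 did not pass (36.1% called, against 39.9% of all genes). With Gusb and Polr2a among the reference genes, 15 rose and 6 fell, against 8885 and 2341 of all 18193 genes. The survival gene Birc5 was at 8.07 and 8.01 with vorinostat, against 10.75 and 10.71 with DMSO, a change of -2.69 (SE 0.08, limma adjusted p = 0.00016). The cyclin Ccnd1 was at 8.78 and 9.32 with vorinostat, against 11.17 and 11.15 with DMSO, a change of -2.11 (SE 0.18, limma adjusted p = 0.000934). The adhesion genes Nrcam (1.18, SE 0.09) and Cd44 (1.00, SE 0.11) rose, and the mean over the probe sets of Nrcam rose by 0.45. Among the 23 targets that did not pass were Notum (0.00), Sp5 (-0.02), Myc (-0.10) and Lgr5, which lay near background on all arrays. These 4 were picked after their values were seen.

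**Figure D4:**
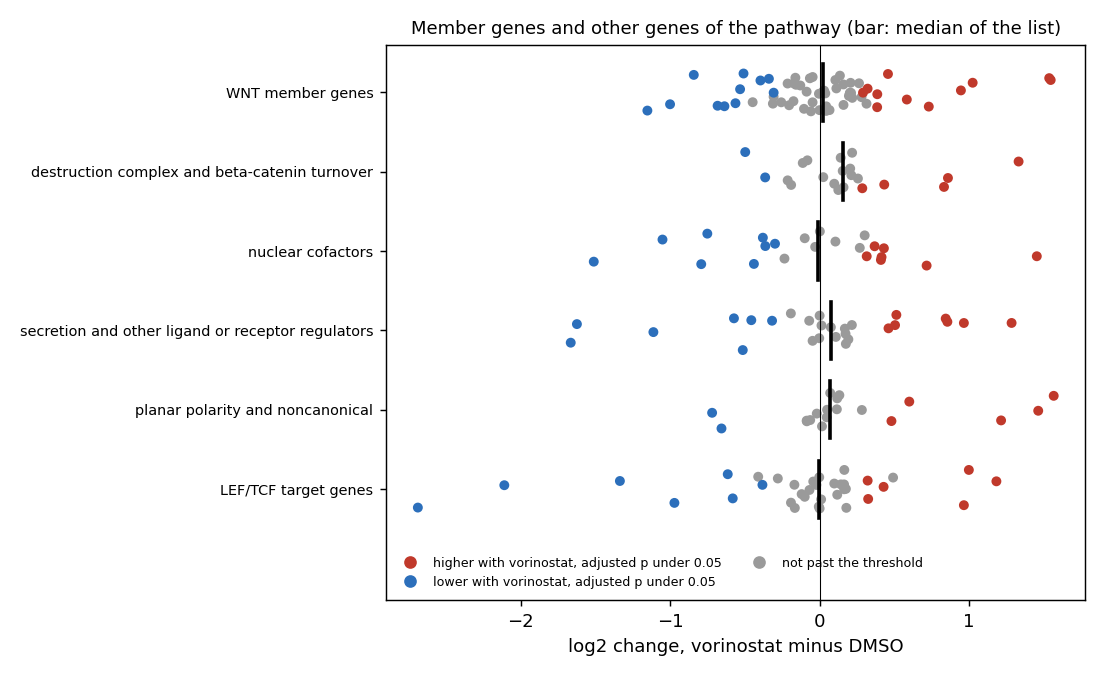
Log2 change (vorinostat minus DMSO, horizontal axis) of the 61 member genes and of the genes of 5 other lists of the pathway, 1 point a gene at its brightest probe set, with vertical position within a row at random; black bars are the medians of the lists. The medians lie between -0.01 and 0.15, and the widest falls are those of Birc5 (-2.69) and Ccnd1 (-2.11) among the LEF/TCF targets.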

How the data were processed

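The authors deposited 1 log2 value per probe set and array for 4 Affymetrix arrays. Per the submitters' processing notes, RMA was run in the Transcriptome Analysis Console (versions not listed). By its definition RMA makes the arrays' probe intensity distributions equal before probe sets are summarized, which hides any shift common to the whole transcriptome. The medians of the summarized values still differed slightly between arrays. Of 45101 probe sets, 64 controls were left out. Platform annotation gave 34945 of the rest 1 symbol, 932 several and 9160 none. All 123 member identifiers matched the RefSeq table (GRCm38.p6), which changed 0 symbols. No genome build is named for the deposited values, and coordinates served only to find neighbouring genes in the RefSeq table.

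The groups were tested with limma 3.58.1 (R 4.3.3, lmFit and eBayes, two-sided, 3.26 prior degrees of freedom, Benjamini-Hochberg adjustment over 45037 probe sets, threshold 0.05), with no filter. The fit was tested on simulated data. Alternatives were scalings, prior variances, a filter on dim probe sets, the mean over probe sets, the replicate block and leaving out each array. A gene is read at the probe set with the highest mean. Values within 1 log2 unit of the highest control not spiked in (limit 3.78) are near background, and a change against such a group is bounded by the other group's distance from the limit. The number of arrays limits the precision. Members, lists, the near-background margin and the rule for named genes (all member genes by role, with array values for changes of at least 1 on the log2 scale and for others that a result turns on, and up to 2 rises and 2 falls of each other list) were chosen with earlier results of these data known. Sequences are not used here.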

Additional observations from a re-analysis of the deposited data

How the results depend on the processing

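The 22 member genes past the threshold kept their direction in every alternative run, and 9 of them also stayed past it in each. With Gusb and Polr2a added to the reference genes, an alternative chosen after seeing the data, the member probe sets higher numbered 50. Member genes numbered 27 higher and 7 lower, and other pathway genes 65 higher and 15 lower. Of all 18193 genes, 8885 were higher and 2341 lower in that alternative. With the replicate number as a block, 9 member probe sets and 7 member genes were higher. Same-numbered arrays deviated from their group means with a correlation of -0.06 over 45037 probe sets. With 2 arrays a group, this value cannot tell whether same-numbered samples shared a culture or batch, and the labels do not say. With single arrays left out, the lone array of a group being assumed to vary like the other group, member probe sets ran from 5 to 8 higher and from 8 to 13 lower, member genes from 5 to 7 and from 5 to 6, and other pathway genes from 11 to 15 and from 10 to 16. The other counts of these genes were within 1.5 times the main ones. The array number limits the precision, and levels near background limit Rspo3, Sfrp2, Reck and Wnt16. The cause of these differences was not tested. Of genes not past the threshold, 27 had a value of opposite sign in some alternative, none of them past it. As the mean over probe sets, these were Lef1 (0.047), Nkd1 (0.028), Nkd2 (0.020), Rspo2 (0.092), Sfrp1 (-0.062) and Tcf7l2 (-0.10). With median scaling, these were Fzd10os (-0.030), Sfrp1 (-0.016), Sfrp5 (-0.035), Tcf7l2 (-0.022) and Wnt8a (-0.017). With quantile normalization once more, these were Fzd10os (-0.030), Sfrp1 (-0.016) and Sfrp5 (-0.045). With reference-gene scaling, these were Lgr5 (0.043), Nkd1 (0.038), Notum (0.040), Rspo2 (0.042) and Sp5 (0.021). With Gusb and Polr2a added, these were Apc (0.12), Axin2 (0.071), Dvl3 (0.23), Fzd8 (0.018), Fzd9 (0.21), Lef1 (0.17), Lgr5 (0.27), Myc (0.18), Nkd1 (0.27), Nkd2 (0.15), Notum (0.27), Rspo2 (0.27), Sp5 (0.25), Wnt10b (0.11), Wnt3 (0.061), Wnt3a (0.19), Wnt4 (0.22), Wnt5b (0.10), Wnt7a (0.10) and Wnt9a (0.23). With single arrays left out, values on both sides of 0 were Dvl3 -0.18 to 0.085, Fzd10os -0.067 to 0.13, Fzd9 -0.17 to 0.043, Lgr5 -0.25 to 0.25, Nkd1 -0.16 to 0.15, Notum -0.087 to 0.082, Rspo2 -0.099 to 0.097, Rspo4 -0.11 to 0.24, Sfrp5 -0.082 to 0.13, Sp5 -0.11 to 0.068, Tcf7l2 -0.080 to 0.16, Wnt10b -0.36 to 0.039 and Wnt8b -0.045 to 0.46.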
